A study of Mus musculus with 24 samples.

Results

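The Zfp genes of the mouse encode zinc finger proteins named by number, and their promoters were examined for a change in accessibility with age in the small intestinal epithelium. A gene was a member when it was protein coding, its symbol was Zfp followed by a number alone, and at least 1 consensus peak lay within 1000 bp of its annotated transcription start site (TSS). Of 304 Zfp genes with any assigned peak, 232 met this rule, among 14561 genes with such a promoter peak and 10791 protein-coding ones. A low-count filter left 230 members among 13880 tested genes. The members left out were Zfp811, with 9, 8 and 4 counts in the aged libraries and 7, 15 and 2 in the young ones, and Zfp664, with 5, 12 and 8 against 9, 12 and 2.

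The assay was ATAC-seq, where Tn5 transposase tags open chromatin with adapters, run on EpCam+ CD45- cells sorted from the small intestine of C57BL/6JRj mice. There were 3 aged libraries (1, 2 and 4) and 3 young ones (1, 2 and 4), each sequenced on 4 lanes, and no further treatment or genotype is labelled. The ages of 20 to 22 months and 2 to 3 months come from a design text that describes other assays of the study. The labels do not say that each library came from its own mouse, so p-values measure only the spread between these libraries.

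Most mouse Zfp genes encode proteins with tandem C2H2 zinc fingers, each finger contacting a few bases of DNA. Many carry a KRAB domain as well, which recruits the co-repressor TRIM28 and the histone methyltransferase SETDB1, and such proteins are known for silencing retroelements and protecting imprinted loci. KRAB zinc finger genes multiplied by local duplication and sit in clusters, whereas members without the domain include activators, RNA-binding proteins and ribosome-associated factors.

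The promoters on which the results turn are shown first, with every CG dinucleotide in capitals. The first 4 are the members called lower in aged, and Zfp712 is the member of the chromosome 13 cluster with the smallest p. Each runs 5′ to 3′ on the gene's strand from 250 bases before to 50 after the RefSeq start (GRCm38.p6), at chr2:165388210-165388509 (minus strand) for Zfp334, chr9:122922828-122923127 (plus) for Zfp105, chr4:62208497-62208796 (minus) for Zfp37, chr9:22187916-22188215 (plus) for Zfp872 and chr13:67061121-67061420 (minus) for Zfp712.
Zfp334: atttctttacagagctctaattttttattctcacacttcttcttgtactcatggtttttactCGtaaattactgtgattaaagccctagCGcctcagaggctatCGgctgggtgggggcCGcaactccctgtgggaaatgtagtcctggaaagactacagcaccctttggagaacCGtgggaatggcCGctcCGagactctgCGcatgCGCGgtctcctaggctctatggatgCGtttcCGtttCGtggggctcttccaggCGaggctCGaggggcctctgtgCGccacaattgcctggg
Zfp105: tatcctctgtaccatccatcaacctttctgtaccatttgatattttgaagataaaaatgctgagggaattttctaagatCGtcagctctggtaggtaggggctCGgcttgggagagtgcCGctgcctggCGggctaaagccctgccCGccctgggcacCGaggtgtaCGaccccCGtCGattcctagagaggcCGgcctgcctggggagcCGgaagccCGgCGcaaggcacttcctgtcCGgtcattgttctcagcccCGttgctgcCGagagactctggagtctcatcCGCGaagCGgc
Zfp37: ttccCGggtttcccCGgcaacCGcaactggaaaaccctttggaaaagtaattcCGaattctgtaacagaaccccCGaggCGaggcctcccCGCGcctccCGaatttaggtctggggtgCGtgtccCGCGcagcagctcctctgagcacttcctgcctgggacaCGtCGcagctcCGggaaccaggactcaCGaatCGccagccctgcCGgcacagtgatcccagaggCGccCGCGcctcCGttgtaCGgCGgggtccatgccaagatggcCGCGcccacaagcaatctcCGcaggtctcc
Zfp872: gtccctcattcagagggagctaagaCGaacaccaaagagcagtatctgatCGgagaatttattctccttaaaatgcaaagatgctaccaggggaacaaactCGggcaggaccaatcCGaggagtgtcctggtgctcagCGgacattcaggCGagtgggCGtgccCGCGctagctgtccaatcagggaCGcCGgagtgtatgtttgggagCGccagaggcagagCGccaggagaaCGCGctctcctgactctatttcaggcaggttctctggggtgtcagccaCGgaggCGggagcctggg
Zfp712: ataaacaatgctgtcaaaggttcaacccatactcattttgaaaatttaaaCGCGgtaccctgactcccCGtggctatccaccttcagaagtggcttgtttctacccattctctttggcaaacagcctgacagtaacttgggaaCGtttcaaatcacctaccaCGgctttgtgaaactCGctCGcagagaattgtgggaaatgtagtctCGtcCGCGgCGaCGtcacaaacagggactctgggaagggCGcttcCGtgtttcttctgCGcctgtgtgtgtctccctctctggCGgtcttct
These hold 16, 19, 27, 17 and 16 CG dinucleotides in that order, against a median of 16 over the 184 members with a RefSeq promoter 20 over 7442 other genes with a tested promoter and a RefSeq one, and 13 over all 17491 protein-coding RefSeq promoters, open here or not. None of the 5 shares a run of 31 bases with another gene's promoter.

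Counts in peaks totalled 16900796 to 23935291 in the aged libraries and 6149680 to 22819924 in the young ones, with young 4 the shallowest. The share of promoter counts on members was 1.78, 1.80 and 1.80% in the aged libraries, against 1.76, 1.80 and 1.79% in the young ones, so the ages overlapped. Of the epithelial markers 16 of 20 were tested and 0 called. The Epcam promoter had 152 ± 4.18 CPM in aged and 159.9 ± 1.45 in young (SD, n = 3 each), lower without overlap. Higher in aged without overlap were Olfm4 (73.8 ± 2.89 against 62.1 ± 3.62 CPM), Fabp1 (29.9 ± 2.59 against 23.3 ± 5.46) and Krt18 (85.6 ± 2.34 against 77.9 ± 4.20). The other tested ones overlapped. Of all genes 7.01% were higher and 7.02% lower without overlap. Of 13 leukocyte markers only Cd74, an antigen presentation gene, had a tested promoter, at 34.5, 61.8 and 50.8 CPM in aged and 16.2, 22.7 and 48.1 in young. Ptprc, which encodes CD45, had none. Neither had the epithelial markers Dclk1, Krt19, Sis and Vil1, so the lack of a tested promoter does not show that a cell type is absent. Stromal, endothelial and muscle markers had 4 of 11 tested and summed to 70.1 to 81.1 CPM in aged and 64.4 to 73.7 in young. Their part in the results below was not tested.

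Few Zfp promoters differed with age beyond the spread between libraries. Zfp334, Zfp105, Zfp37 and Zfp872 were 2.51-fold to 5.99-fold lower in aged epithelium, and 0 members were called higher. In the edgeR quasi-likelihood test by age alone, p-values were adjusted over all genes by Benjamini-Hochberg. At an adjusted p below 0.05, 4 of 230 members (1.74%) were called lower and 0 higher, against 0.973% and 0.771% of all tested genes. With libraries paired by replicate number as a block, 5 members were called lower and 1 higher, against 1.81% and 1.53% of all genes. At an unadjusted p below 0.05, 8 members were lower and 12 higher by edgeR, 5 and 8 by DESeq2, and 8 and 11 by limma-voom. The corresponding shares of all genes in edgeR were 4.33% lower and 4.6% higher. The median log2 fold change, aged over young, was 0.01 over members and -0.002 over all genes, with 121 members above 0. These are bulk libraries, so fewer cells with an open promoter and less opening per cell cannot be told apart.

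**Figure D1:**
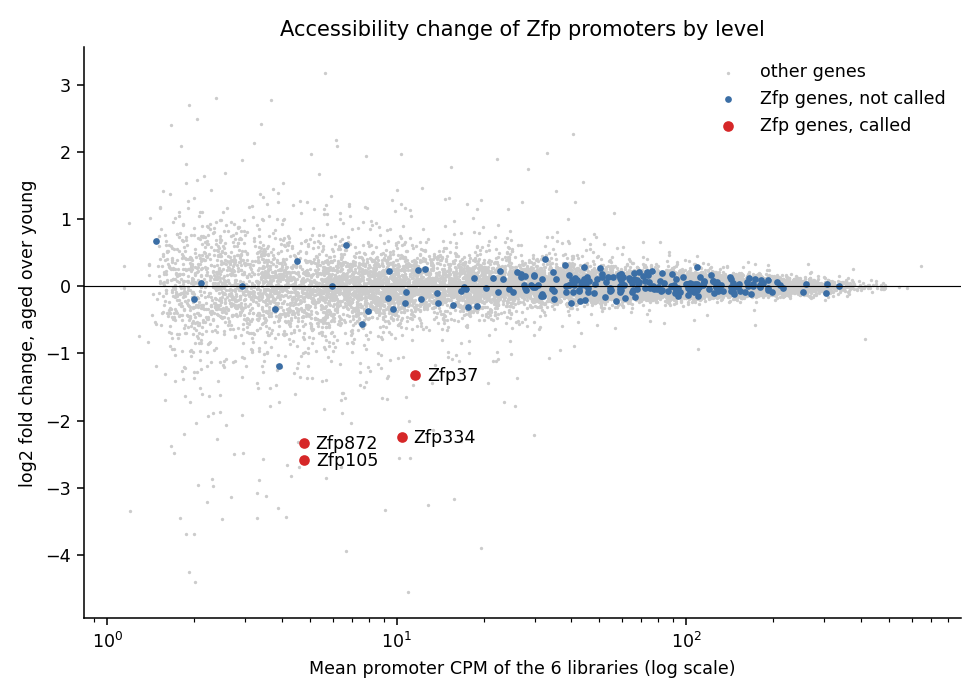
Mean promoter CPM over the 6 libraries (log axis) against the log2 fold change, aged over young, for 13880 tested genes, with the 230 Zfp members coloured. The 4 called members lie below -1.3 and at mean levels of at most 11.6 CPM, while most other members lie near 0.

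Zfp334 encodes a C2H2 zinc finger protein, and its promoter held a single peak at chr2:165388018-165388433, 34 bp from the TSS. Normalised counts were 3.66, 3.13 and 3.68 CPM in aged 1, 2 and 4, and 14.2, 15.1 and 22.8 CPM in young 1, 2 and 4. All aged libraries lay below all young ones, from 21, 25 and 21 counts against 114, 101 and 45. The log2 fold change was -2.24 (SE 0.26, Benjamini-Hochberg adjusted p = 2.81e-06, edgeR quasi-likelihood test). The 4 other tested peaks within 50000 bp also lay below 0, at -1.04 to -0.24, and none was called.

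Zfp105 had a single promoter peak at chr9:122922959-122923320, 40 bp from the TSS. It had 1.92, 1.13 and 1.23 CPM in the aged libraries and 9.09, 8.80 and 6.59 CPM in the young ones. The ages did not overlap, with 11, 9 and 7 counts in aged and 73, 59 and 13 in young. Its log2 fold change was -2.58 (SE 0.33, Benjamini-Hochberg adjusted p = 1.72e-05, edgeR quasi-likelihood test). Of 6 other peaks within 50000 bp none was called, at -1.27 to 0.52 with a median of -0.04. The lowest, at the promoter of A530083I20Rik, had 0.396 ± 0.148 peak CPM (scaled to all peaks) in aged and 1.02 ± 0.153 in young.

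Zfp37, a KRAB zinc finger gene, had its peak at chr4:62208268-62208806, annotated as promoter-TSS. Its level was 5.93, 7.13 and 6.83 CPM in aged and 16.6, 17.4 and 15.7 CPM in young. The spread within each age was under 1 CPM (SD 0.623 in aged and 0.870 in young). The log2 fold change was -1.33 (SE 0.21, Benjamini-Hochberg adjusted p = 0.000219, edgeR quasi-likelihood test). The only other tested peak within 50000 bp, in intron 3 of 3 of Zfp37, had -0.50 and was not called.

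Zfp872 differed from the other 3 in having a further annotated start. The peak within 1000 bp of its listed TSS lay in intron 1 of 3 at chr9:22188038-22188542, with 2.44, 1.25 and 0.876 CPM in aged and 5.48, 8.95 and 9.63 CPM in young. Every aged library was below every young one, and the log2 fold change was -2.33 (SE 0.37, Benjamini-Hochberg adjusted p = 0.000297, edgeR quasi-likelihood test). A stronger peak annotated as promoter-TSS of the same gene lay 8488 bp from the listed TSS, at chr9:22196320-22196992. In peak CPM, scaled to all peaks, it had 51.9 ± 1.51 in aged and 53.7 ± 5.01 in young, a log2 fold change of -0.05 that was not called. When promoters were taken as all peaks annotated promoter-TSS, Zfp872 had -0.03 (adjusted p = 0.962, edgeR quasi-likelihood test). Of 15 other tested peaks within 50000 bp, at -1.42 to 0.55 with a median of -0.05, 2 were called lower and 0 higher. Over all tested peaks 1.6% were called in either direction. The called ones were a peak in intron 1 of Zfp809 and an intergenic peak at chr9:22161865-22162277. The latter had 6.85 ± 0.734 peak CPM in aged and 10.48 ± 1.035 in young (adjusted p = 0.0358, edgeR quasi-likelihood test).

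**Figure D2:**
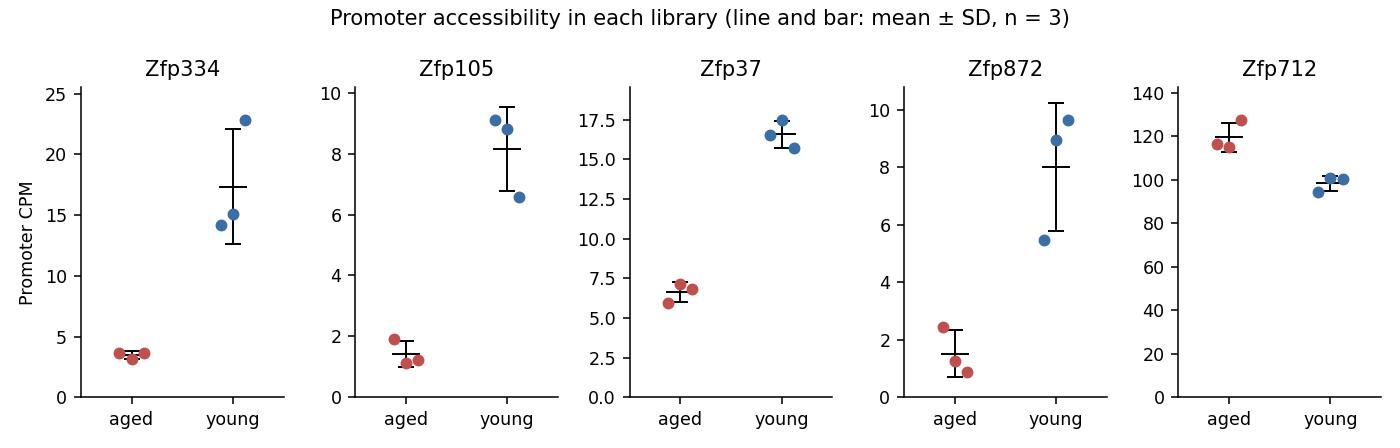
Promoter CPM in each aged (left) and young (right) library for the 4 called members and Zfp712, with mean and SD (n = 3). Aged and young values do not overlap in any panel, lower in aged for the 4 called members and higher in aged for Zfp712.

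Counting only peaks within 1000 bp of the listed TSS, the called members were among the weakest promoters of the set. For Zfp872 this leaves out the stronger peak at 8488 bp. Per kilobase of peak, Zfp334, Zfp37, Zfp105 and Zfp872 ranked 210, 212, 225 and 230 of 230, at 25.1, 21.5, 13.2 and 9.45 CPM per kb, against a median of 81.4 for members and 85 for protein-coding genes. The strongest members were Zfp956 with 505, Zfp446 with 476 and Zfp574 with 443 CPM per kb, and none of these was called. At the other end, Zfp641 and Zfp62 had 10.1 and 11.3 CPM per kb and were not called either. Zfp62 also had a stronger peak at -9196 bp from its listed TSS, outside this count. That peak had means of 61.45 peak CPM in aged and 59.78 in young and was not called. Among the 3470 genes with a mean promoter CPM of at most 12.7, 4 of 23 members and 90 of all genes were called lower. Up to that same level 0 members and 38 of all genes were called higher. Above that level 0 of 207 members were called. Of all genes from 12.7 to 51.6 CPM, 45 of 3470 were called higher and 39 lower. From 51.6 to 108 CPM, 14 of 3470 were called higher and 4 lower, and from 108 to 648 CPM, 10 of 3470 and 2. Whether the 0 among members differs from these counts was not tested.

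Zfp286, singled out after its values were seen, was also lower and weak, with 1.40, 2.38 and 2.98 CPM in aged and 4.86, 4.33 and 7.6 CPM in young. Its log2 fold change of -1.18 (SE 0.36) had an adjusted p of 0.119 in edgeR's quasi-likelihood test. With the replicate number as a block, which called 1.81% of all genes lower, it was called, at -1.28 (adjusted p = 0.00907, same test). The promoter of Zfp286os, annotated as antisense and not a member, had a log2 fold change of -0.05 and was not called.

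The members were spread over 20 chromosomes, with 62 on chromosome 7, 29 on chromosome 17 and 24 on chromosome 13. Runs of 3 or more members with at most 500000 bp between neighbours gave 16 clusters with 114 members, and 118 were dispersed. Among tested members, those in clusters had a median log2 fold change of 0.04, with 69 of 113 above 0, and the dispersed ones -0.01, with 52 of 117 above 0. Non-overlapping higher values in aged were seen in 17 members of clusters and 10 dispersed ones, together 11.7% of members against 7.01% of all genes. Non-overlapping lower values were seen in 6 and 14, together 8.7% against 7.02%. Of the 4 called members 3 were dispersed and 1, Zfp872, lay in a cluster.

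**Figure D3:**
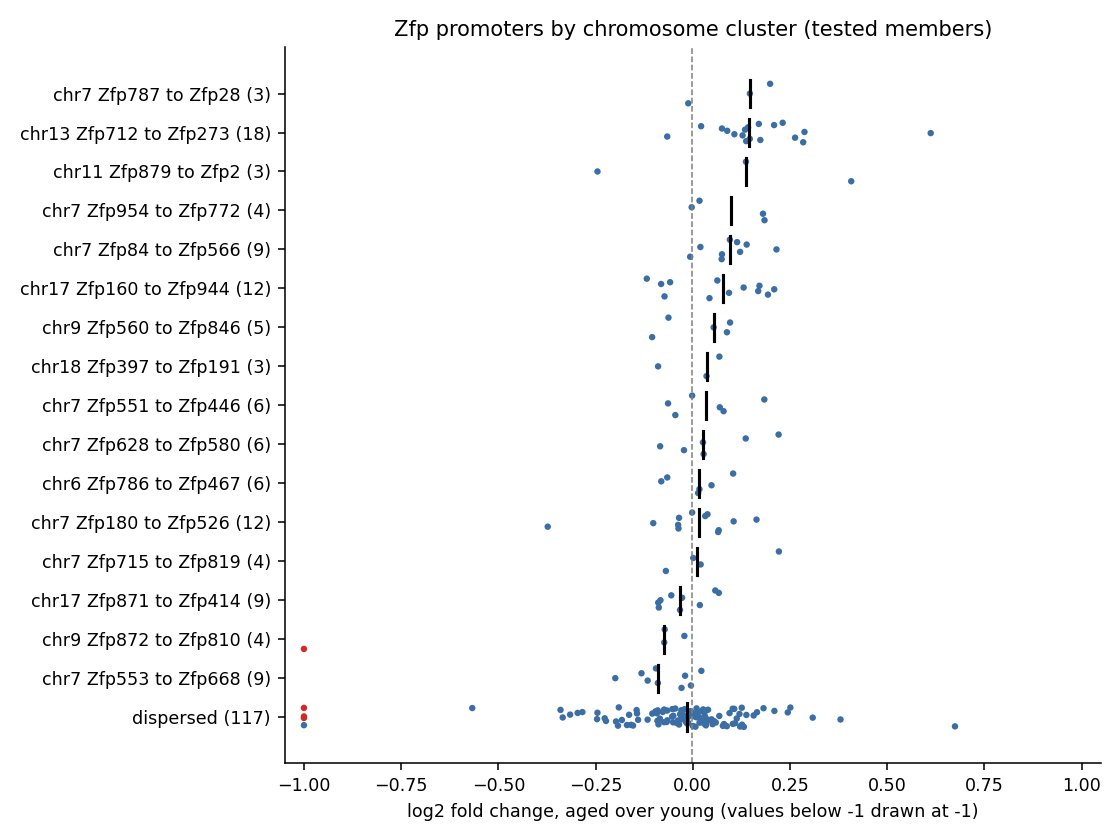
Log2 fold change, aged over young, of the tested members in each chromosome cluster and of dispersed members, with the number tested in brackets, the median as a bar and the median of all genes dashed. Called members are red, values below -1 (the 4 called ones and Zfp286) are drawn at -1, and the chromosome 13 cluster has 17 of 18 members above 0.

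The largest cluster, Zfp712 to Zfp273 on chromosome 13 (chr13:67060159-67814555), held 18 members, of which 0 were called. Their promoters summed to 1068, 1049 and 1169 CPM in the aged libraries 1, 2 and 4, against 943, 1013 and 1009 CPM in the young libraries 1, 2 and 4. The ages did not overlap, and the ratio of means was 1.11. Fitted log2 fold changes were above 0 for 17 of 18, with a median of 0.14. Aged and young libraries did not overlap for 7 members, all higher in aged, where 7.01% of all genes were, and 5 had an unadjusted p below 0.05, where 4.6% of all genes were higher at that p. The size of the median rests partly on aged 4, being 0.09 without that library, with 15 of 18 above 0, and 0.10 without young 1.

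Zfp712 had the smallest p in this cluster, with 116, 115 and 127 CPM in aged and 94.5, 101 and 100.3 CPM in young over 2 peaks. Every aged value was above every young one, and the log2 fold change was 0.28 (SE 0.08). It missed the threshold in the edgeR quasi-likelihood test (Benjamini-Hochberg adjusted p = 0.0612) and passed it with the replicate block (0.0129), in limma-voom (0.0415) and without young 4 (0.0466). The block called 1.53% of all genes higher. Over all settings run the adjusted p lay between 0.0129 and 0.394.

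Zfp273, at the far end of the cluster, had 79.9, 79.8 and 85.7 CPM in aged and 69.7, 68.2 and 72.0 CPM in young. Zfp456, the lowest of the cluster in CPM from a single peak of 136 bp, had 6.80, 7.13 and 9.81 CPM in aged and 4.36, 5.37 and 6.59 CPM in young. Both were non-overlapping and neither was called (adjusted p = 0.310 and 0.500 in edgeR's quasi-likelihood test); these members were named after their values were seen. Zfp708, which represses a class of retroelements in mice, had 118, 111 and 124 CPM in aged and 104, 114 and 100.3 CPM in young, with overlap. The one member below 0 was Zfp457, with 52.9 ± 4.12 CPM in aged and 56.0 ± 3.54 in young. For Zfp65 the fitted value was 0.02 although its means were 40.9 CPM in aged and 41.2 in young.

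**Figure D4:**
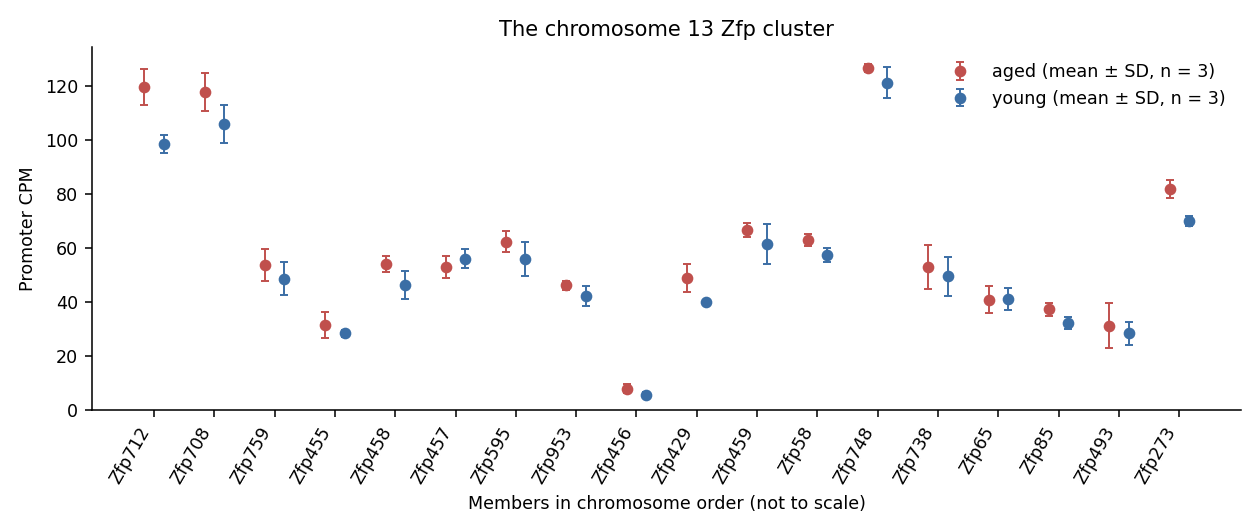
Promoter CPM, mean ± SD over 3 libraries, of the 18 chromosome 13 cluster members in chromosome order, aged left of young. Aged means are above young means for all but Zfp457 and Zfp65, and 7 members have no overlap between the ages.

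Other promoters within the same span also lay above 0. All 8 tested promoters there that are no members lay above 0, at a median of 0.17, and none was called. They include Zfp729a, Zfp729b and Zfp874b, whose symbols carry a letter, and Rsl1, a KRAB zinc finger gene that limits male-specific liver expression in mice. The 11 tested peaks of the span farther than 1000 bp from a TSS had a median of 0.00, with 5 above 0. Members of this cluster were poor in CG dinucleotides, with a median of 8 in the 16 RefSeq promoters, and 11 of these shared at least 1 run of 31 bases with another gene's promoter. How reads with several mapping places were handled is not given in the sources used here, so counts of such members are uncertain.

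Over promoters of other genes, grouped by CG dinucleotides, the share with a log2 fold change above 0 was 54.5% with 0 to 5, 56.1% with 6 to 10, 49.3% with 11 to 15, 43% with 16 to 20, 44% with 21 to 30 and 47.2% with 31 to 64. Their medians lay between -0.02 and 0.03, and no difference between these groups was tested. Among members with 0 to 5, 5 of 9 were above 0 at a median of 0.02, with 6 to 10, 33 of 50 at 0.09, and with 11 to 15, 19 of 28 at 0.04. With 16 to 20, 21 of 43 members were above 0 at -0.03, with 21 to 30, 18 of 38 at -0.003, and with 31 to 64, 7 of 16 at -0.009. These member counts include the 16 RefSeq promoters of the chromosome 13 cluster, whose median was 8, so they are not separate from it. The part of CG content in the cluster's values was not tested.

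**Figure D5:**
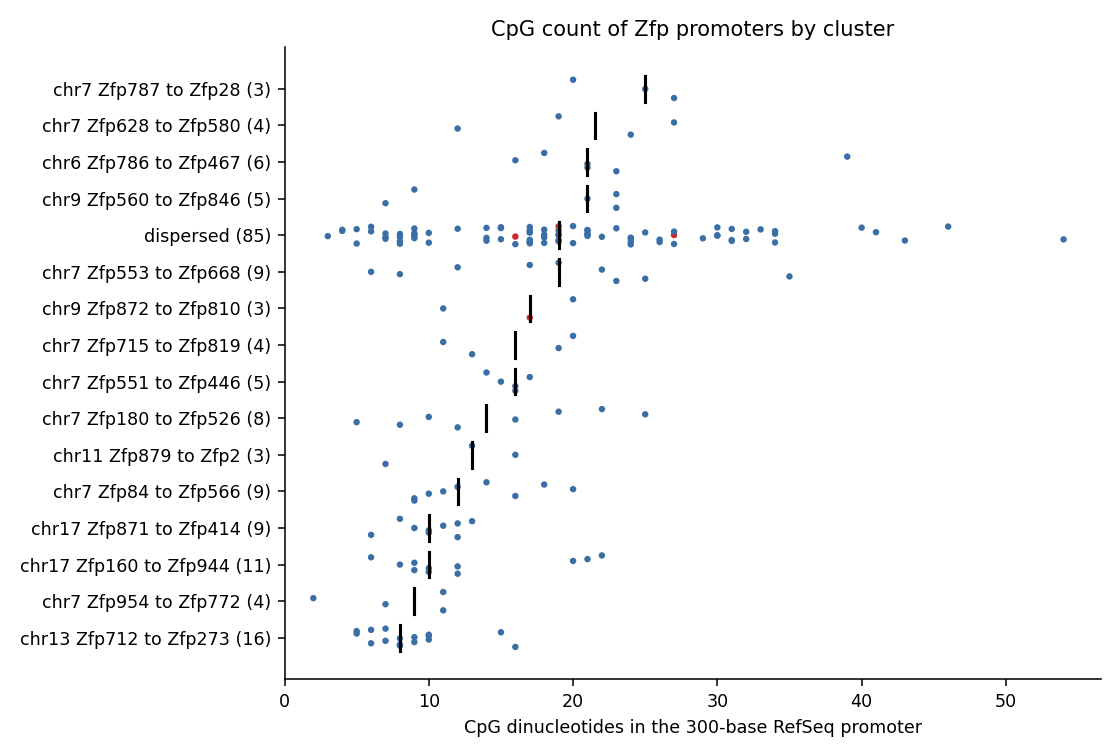
CG dinucleotides in the 300-base RefSeq promoter of each member by cluster, with the median as a bar and called members in red, for groups with 3 or more sequences. The chromosome 13 cluster has the lowest median, 8, and dispersed members have a median of 19.

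On chromosome 17, the cluster Zfp160 to Zfp944 (chr17:21008724-22361756) summed to 795, 802 and 835 CPM in aged and 750, 758 and 762 CPM in young, without overlap. Its median log2 fold change was 0.08, with 8 of 12 members above 0, 4 non-overlapping and higher, where 7.01% of all genes were, and 0 called. Zfp760 had the smallest p, with 74.1, 79.4 and 81.6 CPM in aged and 70.2, 65.8 and 66.9 CPM in young (log2 fold change 0.21, SE 0.09, adjusted p = 0.435, edgeR quasi-likelihood test). Lowest was Zfp944, with 30.6 ± 1.56 CPM in aged and 32.9 ± 3.09 in young. Without aged 4 the median of the cluster was 0.04. Zfp942, Zfp943 and Zfp944 share over 50% of their promoter's 31-base runs with other genes, and their counts are uncertain.

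The second chromosome 17 cluster, Zfp871 to Zfp414, had 3 of 9 tested members above 0, a median of -0.03, which was 0.0095 without young 2, and 0 called. Its sums were 593 to 608 CPM in aged and 577 to 633 CPM in young. Both clusters had a median of 10 CG dinucleotides. Zfp799 had 60.7, 67.8 and 61.0 CPM in aged and 66.6, 71.9 and 60.3 CPM in young. No difference between the 2 clusters was tested.

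Chromosome 7 held 8 clusters. In Zfp84 to Zfp566 (chr7:29768048-30090869) 8 of 9 members were above 0, the median was 0.10 and the sums were 681, 680 and 712 CPM in aged and 651, 637 and 649 CPM in young. Its leading member Zfp420 had 72.9, 70.6 and 78.3 CPM in aged and 65.1, 61.0 and 65.4 CPM in young (log2 fold change 0.22, SE 0.09, adjusted p = 0.437, edgeR quasi-likelihood test). The median was 0.06 without aged 4.

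In Zfp553 to Zfp668 (chr7:127232661-127877214) 8 of 9 members were below 0, at a median of -0.09. Its sums were 875, 861 and 773 CPM in aged and 900.3, 871 and 870 CPM in young, so aged 1 overlapped the young range. Zfp764 had 44.1, 40.8 and 38.2 CPM in aged and 45.0, 44.7 and 55.2 CPM in young, and Zfp747 had 145, 145 and 132 against 150, 155 and 153 CPM. These were the 2 non-overlapping members of the cluster, where 7.02% of all genes were lower without overlap, and neither was called. Zfp747 was named after its values were seen. The median rests on aged 4, being -0.01 without it, with 4 of 9 above 0.

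The other chromosome 7 clusters had medians between 0.01 and 0.15 and 0 called members. For 4 of these the median changed sign with 1 library left out, to -0.06 for Zfp954 to Zfp772 without aged 4, to -0.01 and -0.04 for Zfp551 to Zfp446 without aged 4 and without young 2, to -0.015 for Zfp628 to Zfp580 without young 4, and to -0.01 for Zfp715 to Zfp819 without aged 1 and without young 1. Zfp787 to Zfp28 had the highest, 0.15 over 3 members, with sums of 262, 258 and 254 CPM in aged and 268, 239 and 201 CPM in young, which overlapped. Of 20 tested peaks beyond 1000 bp in this span, 5 were called higher and 0 lower, against 1.16% and 0.47% of all such peaks. Of the 5, 1 lay in the last intron of Zfp667 and 1 at -1022 bp relative to the TSS of Zfp28, and the other 3 were assigned to genes that are no members, 1 to Zscan5b and 2 to Gm6792. Zfp324, in the cluster Zfp551 to Zfp446, had 92.1, 88.5 and 106 CPM in aged and 87.4, 84.6 and 76.5 CPM in young (log2 fold change 0.18, SE 0.09, adjusted p = 0.555, edgeR quasi-likelihood test, and 0.10 without aged 4). Zfp446, in the same cluster, had 334, 327 and 342 CPM in aged and 336, 307 and 373 CPM in young.

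On chromosome 9, all 4 members of the cluster Zfp872 to Zfp810 (chr9:22188038-22308074) were below 0, and 3 of 4 without aged 4 or without young 4. Beside Zfp872, Zfp810 had 82.7, 81.4 and 75.3 CPM in aged and 83.3, 84.3 and 84.6 CPM in young, without overlap and not called. Zfp810 was named after its values were seen, and 7.02% of all genes were lower without overlap. Zfp809, which binds the primer binding site of retroviruses and silences them, had 135, 144 and 136 CPM at its promoter in aged and 139.9, 145 and 157 CPM in young. A peak in intron 1 of 5 of Zfp809, 1327 bp from the TSS, was lower in aged, with 2.03, 2.26 and 1.99 peak CPM against 4.94, 6.74 and 4.94 in young (log2 fold change -1.42, SE 0.21, Benjamini-Hochberg adjusted p = 4.81e-05, edgeR quasi-likelihood test). The neighbouring cluster Zfp560 to Zfp846 had a median of 0.05, which was -0.008 without young 2, and 0 called.

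The small cluster Zfp879 to Zfp2 on chromosome 11 held members on both sides of 0. Zfp879, named after its values were seen, had 37.3, 35.6 and 39.6 CPM in aged and 28.5, 29.98 and 24.3 CPM in young, without overlap (log2 fold change 0.41, SE 0.13, adjusted p = 0.157, edgeR quasi-likelihood test). Zfp454, also named after its values were seen, lay lower without overlap, at 11.5, 13.5 and 12.96 CPM in aged and 14.6, 15.2 and 15.7 CPM in young. The clusters on chromosomes 6 and 18 had medians of 0.02 and 0.04 and 0 called members, and that on chromosome 6 had -0.003 without aged 2 and -0.03 without young 1. Zfp956 on chromosome 6 had 247, 254 and 235 CPM in aged and 265, 258 and 254 CPM in young, without overlap and with an adjusted p of 0.795 in edgeR's quasi-likelihood test.

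Among members known to repress retroelements or protect imprints, 4 of 9 had a tested promoter and 0 were called. Besides Zfp708 and Zfp809 these were Zfp57, which maintains imprints in the early embryo, with 7.15, 10.4 and 7.71 CPM in aged and 8.22, 9.69 and 12.7 CPM in young, and Zfp819, with 20.4, 24.1 and 28.9 against 19.3, 23.4 and 19.8 CPM. The ages overlapped for each of these 4. As for the calls, 1.74% of all tested genes were called in either direction. Zfp445, Zfp568, Zfp600, Zfp932 and Zfp989 had no tested promoter within 1000 bp of the listed TSS. Farther out, a peak at -3872 bp from the TSS of Zfp568 had 34.26 ± 2.435 peak CPM in aged and 36.05 ± 4.562 in young. An intergenic peak at -3931 bp from the TSS of Zfp445 had 23.27 ± 1.318 against 22.99 ± 2.407. Neither peak was called.

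Of the sequence-specific regulators without a KRAB domain, 15 of 19 were tested, 6 lay above 0 and 0 were called. Zfp148, which binds GC-rich promoters, had 49.7, 55.4 and 52.0 CPM in aged and 62.0, 58.5 and 64.9 CPM in young, without overlap (log2 fold change -0.22, SE 0.10, adjusted p = 0.492, edgeR quasi-likelihood test). Zfp217, a partner of co-repressor complexes, had 44.3, 41.3 and 40.3 CPM in aged and 27.5, 40.27 and 34.5 CPM in young, without overlap (0.31, SE 0.14, adjusted p = 0.477, same test). The ages were apart only by 40.29 against 40.27 CPM, and the log2 fold change was 0.13 without young 1 and 0.49 without young 2. Zfp143, a general promoter factor, had 301, 294 and 283 CPM in aged and 303, 311 and 330 CPM in young, also without overlap. The remaining tested ones overlapped between the ages. Of all genes 7.01% were higher and 7.02% lower without overlap, and 1.74% were called in either direction.

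Of the RNA and ribosome binding members 6 of 9 were tested and 0 called, against 1.74% of all tested genes. Zfp36, which encodes the mRNA-destabilising protein tristetraprolin, had 149 ± 7.25 CPM in aged and 157 ± 5.70 in young. Zfp598, the ubiquitin ligase that senses collided ribosomes, had 108 ± 6.32 CPM in aged and 106 ± 7.22 in young. Zfp326 and Zfp207 did not overlap, in opposite directions, where 7.01% of all genes were higher and 7.02% lower without overlap. Zfp326 had 152, 148 and 145 CPM in aged and 135, 139 and 128 CPM in young, and Zfp207 had 65.8, 68.1 and 54.3 against 69.9, 68.9 and 73.5 CPM.

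The genes of the KRAB co-repressor machinery, which are no members, had 17 of 31 promoters tested, 1 called lower and 0 higher. Over all tested genes 0.973% were called lower and 0.771% higher. The called gene was Atf7ip, whose product stabilises SETDB1, with 4.19, 5.38 and 4.20 CPM in aged and 8.72, 10.7 and 14.7 CPM in young (log2 fold change -1.21, Benjamini-Hochberg adjusted p = 0.00965, edgeR quasi-likelihood test). Setdb1 itself had 22.95 ± 3.15 CPM in aged and 25.7 ± 1.52 in young. The Atf7ip value comes from a weak peak at -61 bp relative to the listed TSS. Its 2 stronger peaks annotated promoter-TSS, at -21085 and -21966 bp, had log2 fold changes of -0.14 and -0.03 and were not called. Trim28 had no tested promoter. Of the 17 tested genes 4 lay above 0. At an unadjusted p below 0.05 in edgeR's quasi-likelihood test were 4, Atf7ip, Fam208a, Dnmt1 and Cbx3, all lower. Of all genes 4.33% were lower at that p. Fam208a, Cbx3 and Suv39h1 were also lower without overlap, where 7.02% of all genes were.

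Away from promoters, 763 tested peaks beyond 1000 bp were assigned to 204 Zfp genes, and 8 were called higher and 6 lower in aged (1.83% in all), against 1.16% and 0.47% of all such peaks. These shares are without the replicate block. With the block the calls were 23, with 12 higher and 11 lower, while over all tested peaks, promoters included, it called 3.09% against 1.6% without it. Besides the Zfp809 intron peak, an intergenic peak 24237 bp from the TSS of Zfp445 was lower, at 0.247, 0.167 and 0.114 peak CPM in aged and 1.37, 1.83 and 2.07 in young. An intergenic peak 126695 bp from the TSS of Zfp365 was higher, at 12.3, 9.11 and 14.3 peak CPM in aged and 5.36, 2.77 and 3.19 in young (log2 fold change 1.59, SE 0.21). Each of these was free of overlap. Of 10 members with both a called peak away from the promoter and a tested promoter, 0 had a called promoter. Over all tested promoters 1.74% were called in either direction, so so few members cannot show a difference. Zfp74 had a called higher peak at a transcript end, with 3.58 ± 0.785 against 1.27 ± 0.169 peak CPM, and its promoter at 55.6 ± 5.58 against 51.9 ± 7.31 CPM was not called. Of the 64 further peaks annotated promoter-TSS, 0 were called, against 1.32% of such peaks over all genes.

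Short sequence motifs were counted on both strands of the 184 RefSeq promoters of members, of the 7442 other genes with a tested promoter and of all 17491 protein-coding RefSeq promoters, which include genes without a promoter peak. CGGAAG, the core read by ETS factors, was in 37.5% of members, 29.3% of the other tested genes and 21.5% of all. ACTACAA, a part of the motif of the factor encoded by Zfp143, was in 9.24% of members, 3.79% of the other tested genes and 3.84% of all, and AAGATGG, read by YY1, in 10.9%, 7.01% and 6.37% in that order. GGGCGG, read by SP factors, was in 45.1% of members, 63.9% of the other tested genes and 46.3% of all, and TATAAA in 6.52%, 8.05% and 13.3%. No difference in these shares was tested. Of the called members, Zfp105 held CGGAAG and GGGCGG, Zfp37 held AAGATGG and Zfp334 held CGCATGC, the core of the NRF1 motif, which is in 8.15% of members, 6.17% of the other tested genes and 4.48% of all. Zfp872 held none of the 7 motifs searched, the last being TGACGTC, which is in 5.98% of members, 5.52% of the other tested genes and 4% of all. A match describes these letters only.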

How the data were processed

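ATAC-seq counts of 3 aged and 3 young libraries were used; the 4 lane records of a library share 1 column and count once. The authors' counts, 1 per library and consensus peak without normalisation, are used as deposited. The submitters' processing notes name BWA 0.7.17-r1188, MACS2 2.2.7.1, featureCounts 2.0.1 and the build GRCm38, without settings. Distances to the TSS and annotation classes are those of the deposited annotation table. The counting of reads or fragments, the handling of multi-mapped reads and any Tn5 shift were not given in the sources used here.

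Counts of peaks within 1000 bp of a TSS were summed per gene, filtered (filterByExpr), scaled by TMM and tested with edgeR 4.0.16 (quasi-likelihood, robust, age only) in R 4.3.3, with Benjamini-Hochberg adjustment over 13880 genes. CPM values, from edgeR's cpm function, are scaled to promoter counts, or to all peak counts where called peak CPM. SE is the log2 fold change divided by the square root of F. DESeq2 1.42.0 and limma 3.58.1 were alternatives. Tested on simulated data with 13786 genes, the promoter fit recovered 75.8% of 1.5-fold, 93.7% of 2-fold and 97.0% of 4-fold changes. SDs are over 3 libraries.

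Replicate numbers 1, 2 and 4 occur in both ages. Deviations of same-numbered libraries correlated at 0.292, 0.120 and 0.218, all over 0.1, and those of differently numbered ones at -0.222 to 0.00538. The numbers were therefore taken to pair libraries. Deviations were taken from the mean of each age, so the same-numbered and differently numbered correlations are not independent of each other. What the number stands for is not labelled. The calls given are from the fit without this block unless the block is named, and the fit with it is an alternative.

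Members, lists and clusters were chosen with earlier results of these data known. Members set for naming were those called, those of the lists and the 3 strongest and weakest per kilobase. In clusters of 4 or more, those with the smallest p in each direction were added. Not all of these are described, for example Zfp94, Zfp114, Zfp954, Zfp784 and Zfp524. Any others were named outside this rule, and those marked in the text were named after their values were seen. Promoter sequences are from RefSeq (GRCm38.p6), matched by symbol for 184 of 230 members (80.0%). KRAB domains and finger numbers were not analysed here.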

Additional observations from a re-analysis of the deposited data

How the results depend on the processing

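The 4 lower calls stayed 4 under every other scaling, test, filter, window, threshold and left-out library, were 3 with promoters taken as annotated promoter-TSS peaks, which drops Zfp872, and 5 with the replicate block, which adds Zfp286. The count of higher calls was 0, and 1 with the replicate block, with limma-voom and at an adjusted p below 0.1, and 0 to 1 when 1 library was left out, reaching 1 without young 4. With libraries paired by number, the block changed the calls of Zfp712 and Zfp286 and of no other member, and raised called peaks away from promoters to 23, against 14 without it and 11 to 17 with 1 library left out. The members' median lay between -0.001 (without aged 1) and 0.016 (without young 2). Linking neighbours within 250000 or 1000000 bp gave 17 or 18 clusters in place of 16. Uncalled values changed sign for Zfp217 (-0.10) and Zfp809 (0.47) with annotated promoter-TSS peaks, Zfp281 (-0.0201) in thinned libraries, Zfp36 (0.0479) within 2000 bp, and Zfp521 (-0.0133 to 0.629 with 1 library left out); the cause was not tested. Young 4 was the shallowest library, with 6149680 counts, and Zfp105 had 13 counts there.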
